A study of Mus musculus with 128 samples.

Results

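The step from the 4-cell to the 8-cell stage was compared between mouse embryos from Kdm4a wildtype and Kdm4a knockout oocytes, in 62 of the 128 samples of the series. The quantity compared was the interaction of genotype and stage: the 8-cell minus 4-cell change of a gene in knockout embryos minus the same change in wildtype embryos, on the log2 scale. A positive interaction means that the knockout change lay above the wildtype change, and a negative one that it lay below. Genes were then split by whether they rose, fell or did neither in wildtype embryos. All embryos were C57BL/6, and each library held the polyA RNA of 1 embryo whose zona had been removed. The groups were 16 wildtype and 16 knockout embryos of 4 cells at 2.5 days post fertilization, and 16 wildtype and 14 knockout embryos of 8 cells at 3.5 days. The labels write the wildtype embryos as WT (m+/p-) and the knockout embryos as (m-/p-). Oocytes of both genotypes received sperm without Kdm4a, so all 4 groups lacked a paternal copy and the wildtype embryos carried the maternal copy alone. The timing of collection followed the control embryos, so the knockout embryos were not staged on their own progress. The labels name no mothers, litters or collection days, and p-values measure the spread between these embryos. In whole embryos, fewer cells with a transcript and less of it per cell cannot be told apart.

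KDM4A is a demethylase of lysines on histone H3, mainly H3K9 and H3K36, and its mRNA is stored in the egg. In early mouse development the transcripts inherited from the egg are degraded while the embryo's own genome is switched on. Toward the 8-cell stage blastomeres prepare for compaction, in which they flatten against each other through cadherin contacts and acquire an outer and an inner side.

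The libraries held 1455238 to 3919768 counts, with 12192 to 15431 genes detected. The 8-cell knockout libraries of replicates 4 and 7 were left out; the first held 419 counts, and the second 2078119 counts but only 9638 detected genes, with 18.9% of its counts from mitochondrial genes against 3.29% to 15.04% in the libraries used. Kdm4a itself lay under the filter on low counts and was not tested. Its lowest, median and highest values were 0, 3.36 and 11.1 CPM (counts scaled to an equal library total) in 4-cell wildtype and 0, 1.36 and 4.71 CPM in 4-cell knockout embryos. At 8 cells they were 0, 1.59 and 3.4 CPM in wildtype and 0, 1.1 and 6.29 CPM in knockout embryos. These ranges overlapped, so at these stages the gene did not separate the labelled genotypes; at the 2-cell stage its medians were 16.5 CPM in wildtype and 2.26 CPM in knockout embryos. The 10 markers of the preimplantation embryo summed to at least 4533 CPM in every library, led by Dppa3, although Cdx2 was at 0 in all 4-cell knockout and 8-cell wildtype libraries. The 20 markers of cumulus and granulosa cells summed to at most 18.6 CPM and the 8 markers of white blood cells to at most 22.0 CPM in any library. The 12 sperm and spermatid markers summed to 25.4 to 130.5 CPM at 4 cells and 4.69 to 68.6 CPM at 8 cells, with Prm2 at 0 in all groups but the 8-cell knockouts. Ldhc led these sums by mean CPM, or Odf2 in the 8-cell knockouts. In each group 4 to 7 of the 12 were at 0 in all libraries.

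By their medians, the 166 genes called in the interaction changed more in wildtype than in knockout embryos. They were picked by this difference, and 38 negative and 30 positive calls were neither rising nor falling in wildtype. Of 8908 genes tested, the interaction was positive for 85 (0.954%) and negative for 81 (0.909%) at an adjusted p under 0.05 by edgeR's quasi-likelihood test, Benjamini-Hochberg. In wildtype embryos 861 genes rose (9.67%) and 1108 fell (12.4%) by at least 1 on the log2 scale at the same threshold. In knockout embryos 570 genes rose (6.4%) and 589 fell (6.61%). Of the genes rising in wildtype, 387 were also called rising in knockout, and of those falling, 378 were also called falling. A gene called in 1 genotype alone is not thereby shown to differ, which is what the interaction tests. Of the genes that rose in wildtype, 43 had a negative interaction and 1 a positive one. Of the genes that fell, 54 had a positive interaction and 0 a negative one; DESeq2 and limma also called 0, and 2 were negative at an unadjusted p under 0.05 against 320 positive. The wildtype libraries enter both the direction and the interaction, so this one-sidedness is partly built in.

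**Figure D1:**
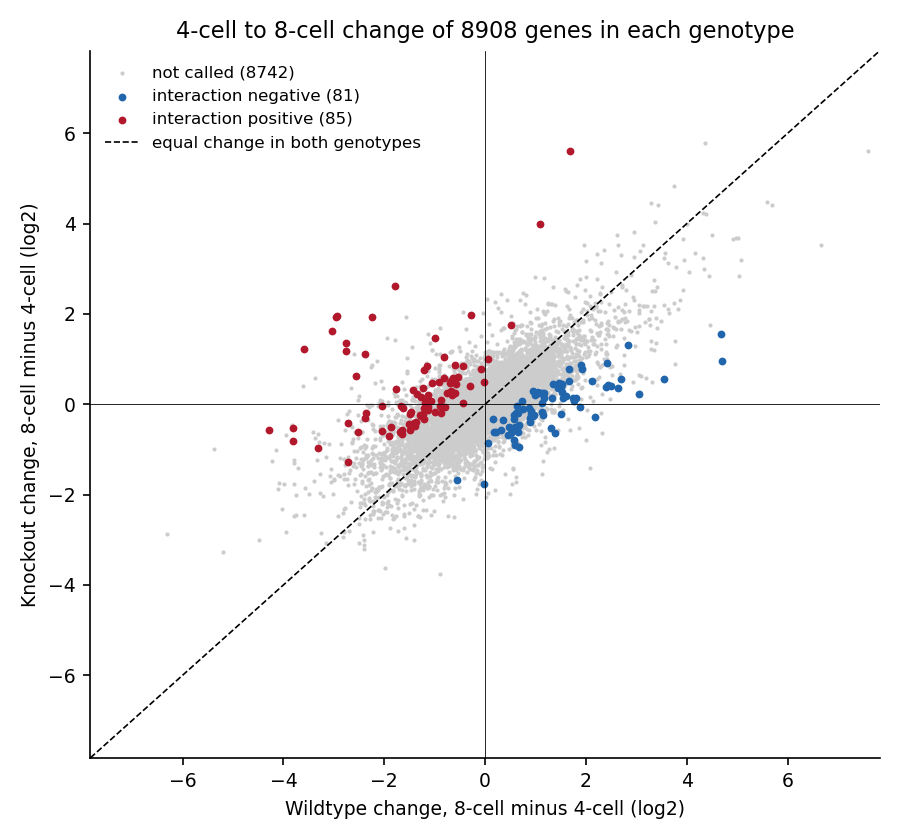
Change from 4-cell to 8-cell (log2) of each gene tested, in wildtype embryos on the horizontal axis and in knockout embryos on the vertical axis; each point is a gene and the diagonal marks equal change. The 81 genes with a negative interaction lie below the diagonal and the 85 with a positive one above it, with median knockout changes of -0.07 and 0.17.

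For the 81 genes with a negative interaction the median change was 1.12 in wildtype and -0.07 in knockout. For the 85 genes with a positive interaction it was -1.22 in wildtype and 0.17 in knockout. Among the 43 genes that rose in wildtype and had a negative interaction, the knockout change was smaller in 36 and of opposite sign in 7. Among the 54 that fell, it was smaller in 33 and of opposite sign in 21. RP23-430H1.2, a clone-named gene that GENCODE M21 lists as 1700007K13Rik at the same position, was called falling in wildtype and rising in knockout. Its 8-cell knockout values were 0, 1.6 and 71.3 CPM (lowest, median, highest), and without replicate 10 of that group its interaction was 2.32, with an adjusted p of 0.225 by edgeR's quasi-likelihood test, Benjamini-Hochberg.

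Most called genes differed between the genotypes at 4 cells and were not called at 8 cells. Over all genes tested, 862 were higher (9.68%) and 751 lower (8.43%) in knockout at 4 cells, and 379 were higher (4.25%) and 281 lower (3.15%) at 8 cells. Of the 81 genes with a negative interaction, 67 were called higher in knockout at 4 cells and not called at 8 cells. Of the 85 genes with a positive interaction, 60 were called lower at 4 cells and not called at 8 cells, and 18 were called higher at 8 cells alone. Mean CPM was lowest in the 4-cell wildtype group for 74 of the 81 genes, against 2139 of all 8908 genes tested. It was highest in that group for 74 of the 85 genes, against 2822 of all 8908 genes tested. The same 16 4-cell wildtype libraries thus enter the wildtype change, the 4-cell difference and the interaction, and these 3 quantities do not support each other independently.

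**Figure D2:**
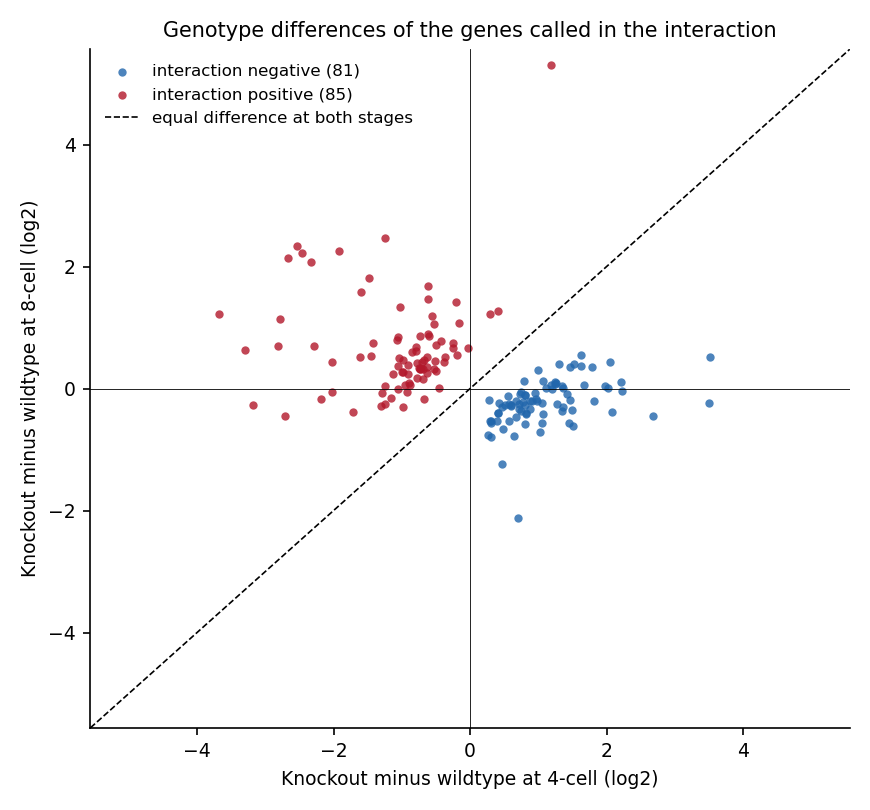
Difference between knockout and wildtype embryos (log2) at 4 cells on the horizontal axis and at 8 cells on the vertical axis; each point is 1 of the 166 genes called in the interaction, coloured by its sign, and the diagonal marks equal differences. Genes with a negative interaction have a median of 0.96 at 4 cells and -0.24 at 8 cells, and genes with a positive one of -0.90 and 0.50.

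Among the genes that rose in wildtype and had a negative interaction, Ube2e3, Cul1 and Ube2r2 work in ubiquitin transfer. Ube2e3, a ubiquitin-conjugating enzyme (chromosome 2, 78869047 to 78921293, mm10), had lowest, median and highest values of 176, 521 and 873 CPM in 4-cell wildtype and 709, 986 and 1877 CPM in 4-cell knockout embryos. At 8 cells they were 1098, 1614 and 2417 CPM in wildtype and 647, 1194 and 1534 CPM in knockout embryos. All 16 knockout embryos lay above the wildtype median at 4 cells and all 14 below it at 8 cells, while the ranges overlapped at both stages. Ube2e3 rose by 1.75 (SE 0.16) in wildtype, against a change of 0.13 (SE 0.16) in knockout, an interaction of -1.62 (SE 0.23, adjusted p = 7.9e-06 by edgeR's quasi-likelihood test, Benjamini-Hochberg). It was 1 of 2 genes called higher in knockout at 4 cells and lower at 8 cells; the other was the clone-named RP23-320H13.2, with an interaction of -0.92 (SE 0.20).

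Cul1, the scaffold of SCF ubiquitin ligases (chromosome 6, 47454320 to 47526139), went from 182 CPM (67.1 to 347) at 4 cells to 410.3 CPM (269 to 564) at 8 cells in wildtype embryos. In knockout embryos it went from 487 CPM (309 to 734) to 413 CPM (204 to 619). At 4 cells all 16 knockout embryos exceeded the wildtype median, and at 8 cells the ranges overlapped. The interaction was -1.30 (SE 0.22, adjusted p = 0.000186 by edgeR's quasi-likelihood test, Benjamini-Hochberg). This value depends on leaving out 8-cell knockout replicate 7, which held 6063 CPM of Cul1; with that library the interaction was 0.04, with an adjusted p of 0.98 by edgeR's quasi-likelihood test, Benjamini-Hochberg. For comparison, the 2-cell medians were 3146 CPM in wildtype and 3252 CPM in knockout embryos.

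Ube2r2, a ubiquitin-conjugating enzyme that works with SCF ligases, was chosen after its values were seen. It stood at 0, 3.34 and 9.59 CPM (lowest, median, highest) in 4-cell wildtype and 3.18, 14.8 and 36.4 CPM in 4-cell knockout embryos, and at medians of 15.6 and 11.8 CPM at 8 cells, with an interaction of -2.46 (SE 0.42). Hsd17b6, a hydroxysteroid dehydrogenase, was at 14.2 CPM (2.82 to 34.3) in 4-cell wildtype and 45.8 CPM (14.5 to 115) in 4-cell knockout embryos. Its 8-cell values were 35.8 CPM (18.5 to 84.7) in wildtype against 30.6 CPM (6.47 to 65.3) in knockout, with overlapping ranges and an interaction of -1.83 (SE 0.39).

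**Figure D3:**
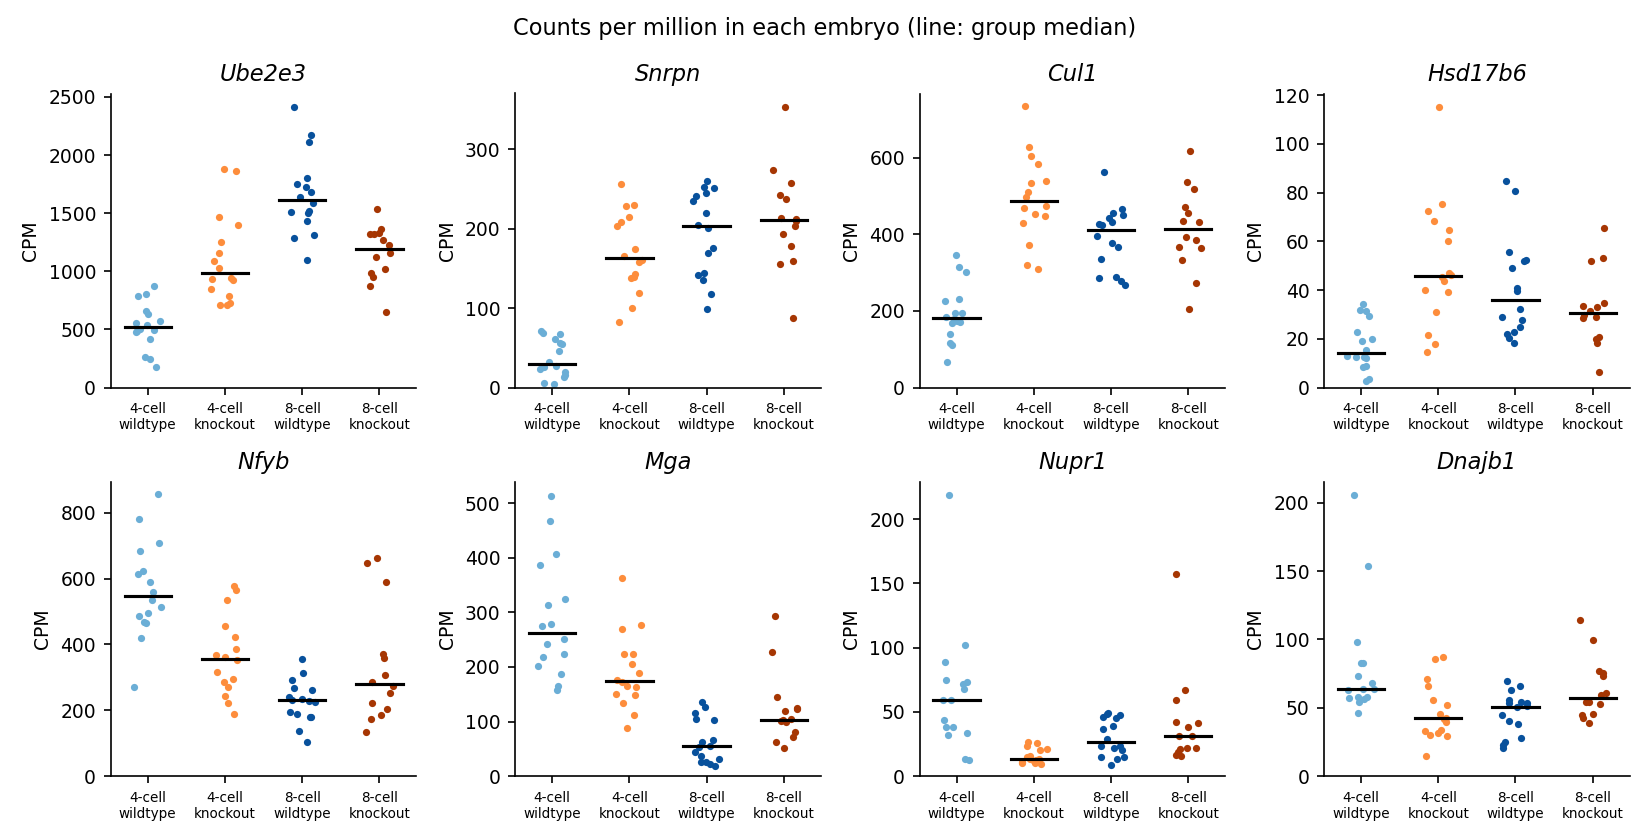
CPM of selected genes in each embryo of the 4 groups; each point is an embryo and the bar marks the group median. Ube2e3, Cul1 and Snrpn have their lowest group median in 4-cell wildtype embryos, and Nupr1 has its lowest in 4-cell knockout embryos.

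A cluster of 4 called genes lay in 1 imprinted locus on chromosome 7, between 59307924 and 60140219 (mm10, minus strand). Snrpn codes for the spliceosomal protein SmN, Snurf for a small protein upstream of it on the same transcript, and Snhg14 is the long noncoding RNA downstream; the locus is known for expression from the paternal copy. RP24-177J9.4, listed as Gm38393 in GENCODE M21, overlaps Snrpn. All 4 genes tested in this span had a negative interaction. They lie on the same strand, overlap or adjoin, and 48.4% to 84.3% of their non-zero values were not whole numbers, so their reads cannot be told apart fully and they count as 1 signal.

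Snrpn stood at 4.14, 29.2 and 71.3 CPM (lowest, median, highest) in 4-cell wildtype and 82.4, 162 and 256 CPM in 4-cell knockout embryos. At 8 cells it stood at 98.5, 203 and 259 CPM in wildtype and 87.5, 211 and 352 CPM in knockout embryos. The genotypes did not overlap at 4 cells and overlapped at 8 cells. Such a gap at 4 cells held for 3 of the 81 genes with a negative interaction, against 0.0898% of all genes tested. The others were RP24-177J9.4, which overlaps Snrpn and is not a separate signal, and Mia2, a gene of cargo export from the endoplasmic reticulum. The 4-cell difference is part of the interaction that picked these 81 genes, so a higher share among them is partly built in. Snrpn rose by 2.51 (SE 0.24) in wildtype, against a change of 0.40 (SE 0.23) in knockout, an interaction of -2.11 (SE 0.33, adjusted p = 4.32e-05 by edgeR's quasi-likelihood test, Benjamini-Hochberg). The interaction was -2.02 (SE 0.35) for Snurf, -1.94 (SE 0.34) for Snhg14 and -2.26 (SE 0.32) for RP24-177J9.4. At the 2-cell stage the Snrpn medians were 53.1 CPM in wildtype and 54.7 CPM in knockout embryos.

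The window around the start of Snurf (RefSeq, GRCm38.p6, chr7:60005150-60005449, minus strand) is shown because the called transcripts of this locus overlap it or lie beside it. Capitals mark CG dinucleotides, where mammalian DNA is methylated; the window holds 7, as does the median of 27025 RefSeq windows, against a median of 22 for the genes tested here that had a window.
Snurf: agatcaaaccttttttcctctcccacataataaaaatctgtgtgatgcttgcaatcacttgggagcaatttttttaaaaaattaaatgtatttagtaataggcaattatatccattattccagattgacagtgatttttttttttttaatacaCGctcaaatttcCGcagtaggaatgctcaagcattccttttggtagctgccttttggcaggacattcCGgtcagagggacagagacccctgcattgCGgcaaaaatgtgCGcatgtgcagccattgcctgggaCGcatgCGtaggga

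Of 17 tested members of the imprinted list, edgeR called Snrpn and Snhg14 alone, both negative, while DESeq2 called 2 negative and 1 positive and limma 2 negative, and the median interaction was -0.14 against 0.03 for all genes tested. Over all genes tested, edgeR called 0.909% negative, and the calls of Snrpn and Snhg14 count as 1 signal. Sgce, a paternally expressed sarcoglycan gene, rose by 2.08 (SE 0.25) in wildtype and 1.65 (SE 0.25) in knockout. Sfmbt2, a Polycomb gene, had an interaction of -2.79 (SE 1.04, adjusted p = 0.164 by edgeR's quasi-likelihood test, Benjamini-Hochberg). Mest, a paternally expressed hydrolase gene, had one of 2.14 (SE 0.68, adjusted p = 0.0809 by edgeR's quasi-likelihood test, Benjamini-Hochberg).

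Nfyb, Mga, Eid2, Twistnb and Haus3 fell in wildtype and had a positive interaction. Nfyb, a subunit of the CCAAT-binding factor NF-Y, went from 546 CPM (271 to 855) to 230.1 CPM (102 to 355) in wildtype embryos. In knockout embryos it went from 356 CPM (188 to 578) to 279 CPM (133 to 663). At 8 cells 16 of 16 wildtype embryos lay below the 4-cell wildtype median, and 9 of 14 knockout embryos below the 4-cell knockout median. The interaction was 1.14 (SE 0.26, adjusted p = 0.0142 by edgeR's quasi-likelihood test, Benjamini-Hochberg); with 8-cell knockout replicate 7 it was 1.04, with an adjusted p of 0.1.

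Mga, a MAX-binding protein of a noncanonical Polycomb complex, had wildtype medians of 263 CPM (158 to 514) and then 54.3 CPM (18.6 to 137), and knockout medians of 174 CPM (87.3 to 363) and then 104 CPM (51.5 to 294), with an interaction of 1.46 (SE 0.34). Eid2, an inhibitor of EP300-dependent transcription, had wildtype medians of 45.9 CPM (10.7 to 84.5) and then 4.39 CPM (1.7 to 21), and knockout medians of 26.6 CPM (2.27 to 61.8) and then 16.9 CPM (4.87 to 56.6), with an interaction of 2.31 (SE 0.51). For both genes the genotype difference was called at 8 cells, at 0.87 (SE 0.24) and 1.69 (SE 0.38), and not at 4 cells. Sirt1, the NAD-dependent deacetylase, was chosen after its values were seen and had the same pattern: a fall of 1.19 in wildtype, a change of 0.02 in knockout and an interaction of 1.21 (SE 0.28).

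Twistnb, a subunit of RNA polymerase I, had wildtype medians of 230.4 CPM (174 to 325) and then 106 CPM (65.1 to 145), and knockout medians of 139 CPM (93.6 to 278) and then 125 CPM (82.8 to 231). Its interaction was 1.07 (SE 0.19, adjusted p = 0.000717 by edgeR's quasi-likelihood test, Benjamini-Hochberg). Haus3, a subunit of the augmin complex of the spindle, was the 1 gene called lower in knockout at 4 cells and higher at 8 cells. Its medians were 569 CPM in wildtype and 430.3 CPM in knockout at 4 cells, and 234 and 341 CPM at 8 cells, with an interaction of 0.88 (SE 0.19).

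Genes that did not pass the wildtype criterion made up 30 positive and 38 negative calls. Nupr1, a stress-induced chromatin protein, stood at 12.4, 59.3 and 219 CPM (lowest, median, highest) in 4-cell wildtype and 9.62, 13.4 and 26.7 CPM in 4-cell knockout embryos. At 8 cells it stood at 8.25, 26.3 and 49.5 CPM in wildtype and 15.7, 31.4 and 157 CPM in knockout embryos. All 16 wildtype embryos of 8 cells lay below the 4-cell wildtype median and all 14 knockout embryos above the 4-cell knockout median, so the genotypes moved in opposite directions. The interaction was 2.45 (SE 0.42, adjusted p = 0.000268 by edgeR's quasi-likelihood test, Benjamini-Hochberg).

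Cir1 and Sap30bp, partners of histone deacetylase corepressors, were lower in knockout embryos at 4 cells. Their differences were -1.16 (SE 0.15) and -0.99 (SE 0.11) at 4 cells and -0.15 (SE 0.16) and -0.30 (SE 0.11) at 8 cells, with interactions of 1.01 (SE 0.22) and 0.68 (SE 0.16). Sap30bp was the 1 gene with a positive interaction whose genotypes did not overlap at 4 cells, with 269.6 to 538 CPM for wildtype embryos against 103 to 260.3 CPM for knockout embryos. Tigar, a fructose bisphosphatase that lowers glycolytic flux, had an interaction of 0.95 (SE 0.22).

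On the negative side, Zranb1, a deubiquitinase, had wildtype medians of 38.1 CPM (14.8 to 78) and then 51.6 CPM (23.4 to 123), and knockout medians of 76 CPM (43.3 to 174) and then 42 CPM (25.5 to 70.7). The interaction was -1.48 (SE 0.30, adjusted p = 0.00412 by edgeR's quasi-likelihood test, Benjamini-Hochberg). Atp13a3, a polyamine transporter, had an interaction of -0.78 (SE 0.17), and Decr2, a peroxisomal enzyme of fatty acid oxidation, of -1.62 (SE 0.37). Fbxo11, the substrate receptor of an SCF ligase, had -1.05 (SE 0.24). Khdc1b, of a KH-domain family expressed in oocytes, had -1.73 (SE 0.36), but 98.4% of its non-zero values were not whole numbers, so reads of relatives may be mixed into it. With 8-cell knockout replicate 7, Khdc1b had 1.64 (adjusted p = 0.29) and Fbxo11 had -0.33 (adjusted p = 0.75) by edgeR's quasi-likelihood test, Benjamini-Hochberg.

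Akr1b8, an aldo-keto reductase, was the 1 gene that rose in wildtype and had a positive interaction, of 3.93 (SE 0.96, adjusted p = 0.0192 by edgeR's quasi-likelihood test, Benjamini-Hochberg). Its medians were 1.74 CPM in 4-cell wildtype, 0 in 4-cell knockout, 5.8 in 8-cell wildtype and 11.2 in 8-cell knockout embryos. Since 3 counts are worth 0.765 to 2.06 CPM in these libraries, both 4-cell medians lie at the limit of detection and the fitted size of its change depends on how low values are treated.

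The split by wildtype direction was repeated with the direction taken from some wildtype embryos and the interaction fitted with the others. The 475 genes that rose in odd-numbered wildtype embryos had a median change of 1.55 in the even-numbered ones and 0.96 in knockout embryos, and the knockout change was smaller in 83.8% of them. The 608 falling genes had medians of -1.30 and -0.80, with the knockout change smaller in 81.6%. With even-numbered embryos giving the direction, the medians were 1.16 and 0.94 for 694 rising genes (64.4% smaller) and -1.16 and -0.76 for 722 falling genes (75.5% smaller). Genes are not independent replicates, so these shares carry no test. The interaction was called negative for 15 and 6 of the rising genes and positive for 4 and 1 of the falling genes, and 0 calls went the other way in either fit. Over all genes, the first fit called 18 positive (0.195%) and 23 negative (0.249%) of 9232, and the second 2 positive (0.0216%) and 7 negative (0.0757%) of 9252.

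**Figure D4:**
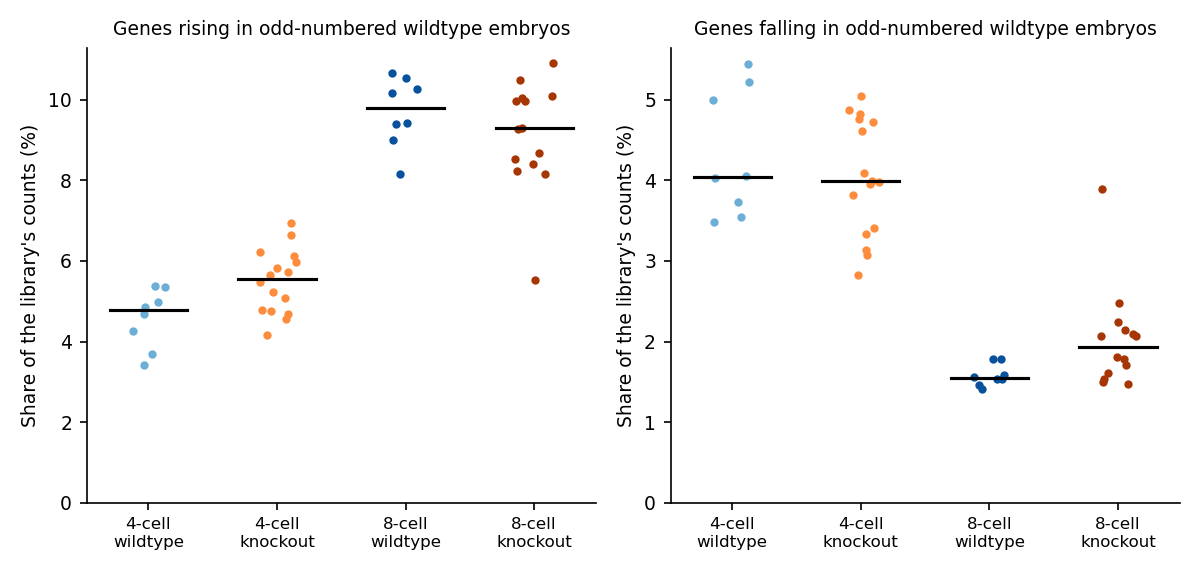
Share of each embryo's counts (%, vertical axis) taken by genes that rose or fell in odd-numbered wildtype embryos, with those embryos left out; each point is an embryo and the bar marks the group median. Both sets move in both genotypes, and 8-cell knockout replicate 16 has the lowest share of rising and the highest share of falling genes of its group, at 5.52% and 3.895%.

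The share of counts taken by these genes showed the step in single embryos. Rising genes took a median of 4.78% (3.42% to 5.37%, n = 8) in 4-cell wildtype and 5.56% (4.15% to 6.94%, n = 16) in 4-cell knockout embryos. At 8 cells they took 9.8% (8.16% to 10.7%, n = 8) in wildtype and 9.29% (5.52% to 10.9%, n = 14) in knockout. Falling genes took 4.04% (3.48% to 5.44%, n = 8) in wildtype and 3.99% (2.82% to 5.04%, n = 16) in knockout at 4 cells. At 8 cells they took 1.55% (1.41% to 1.79%, n = 8) and 1.94% (1.48% to 3.895%, n = 14). Each set moved in both genotypes, and the genotypes overlapped at both stages.

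8-cell knockout replicate 16 stood apart from its group in these shares, and the number of calls depended on it. Without it 101 genes were called in place of 166, of which 97 were among the 166; the positive calls fell from 85 to 44, and those among genes falling in wildtype from 54 to 25. Without 4-cell wildtype replicate 14 the negative calls fell from 81 to 56, and 105 genes were called in all. All 166 genes kept their sign whichever library was left out, and 74 stayed called in all 62 such fits, among them Ube2e3, Cul1, Snrpn, Hsd17b6, Twistnb, Haus3, Eid2, Nfyb, Mga, Nupr1 and Dnajb1. The 166 were picked from these same libraries, so a kept sign was largely fixed in advance.

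A second run of neighbouring calls was lost without 1 library. On chromosome 7 between 20593051 and 23144480 (mm10), all 8 genes tested had an interaction above 0 and 6 of them were called, from 3.51 for RP23-105F15.4 to 4.90 for RP23-280K1.6. RP24-163J14.4 and RP23-362F11.4 had 3.70 (adjusted p = 0.0531) and 3.09 (adjusted p = 0.0935) and were not called by edgeR's quasi-likelihood test, Benjamini-Hochberg. The 6 called genes are clone-named, with 94.9% to 99.1% of their non-zero values not whole numbers, so their reads cannot be told apart fully and they count as 1 signal. In all 6 the highest 4-cell wildtype library was replicate 11 and the highest 8-cell knockout library was replicate 15. RP23-342N5.5 was at 889 CPM in the first of these, against 210.4 CPM in the next 4-cell wildtype library and a median of 11.1 CPM. Without 4-cell wildtype replicate 11 none of the 6 was called by edgeR's quasi-likelihood test, Benjamini-Hochberg: the interactions were 2.44 to 3.52, with adjusted p-values of 0.0664 to 0.174. RP23-105F15.4 was also lost without other libraries, being called in 25 of 62 fits, and the other 5 were called in 53 to 61.

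By gene list, calls were few: of 25 lists, 7 held a gene called by edgeR. The list of compaction, junctions and polarity (23 tested) held 2 negative calls, against 0.909% of all genes, with a median interaction of -0.33 against 0.03 for all genes tested. Cldn6, a claudin of tight junctions, had wildtype medians of 0 CPM (0 to 4.22) and then 10.5 CPM (2.43 to 25), and knockout medians of 1.58 CPM (0 to 8.99) and then 5.83 CPM (0 to 20.4), an interaction of -3.13 (SE 0.86, adjusted p = 0.0394 by edgeR's quasi-likelihood test, Benjamini-Hochberg). Both of its 4-cell medians lie at the limit of detection, so the fitted size depends on how low values are treated. Epcam, an epithelial adhesion protein, was at 44.6 CPM (13.5 to 107) in 4-cell wildtype and 133 CPM (69.6 to 256) in 4-cell knockout embryos, and at 33.7 CPM (14.2 to 57.8) and 42.6 CPM (10.8 to 74.8) at 8 cells. Its interaction of -1.13 (SE 0.32, adjusted p = 0.0477 by edgeR's quasi-likelihood test, Benjamini-Hochberg) was lost in 45 of 62 fits that left out 1 library, and that of Cldn6 in 12. Cdh1, the E-cadherin of blastomere contacts, rose by 2.39 (SE 0.34) in wildtype and 2.04 (SE 0.34) in knockout, and its interaction of -0.35 (SE 0.46) was not called. Tjp1, a scaffold of tight junctions, rose by 1.46 (SE 0.24) and 1.10 (SE 0.24), with an interaction of -0.36 (SE 0.33) that was not called.

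Of the 25 lists, p53 targets and apoptosis genes had the median interaction farthest from 0, with no member called. Over 20 tested members the median change was -0.70 in wildtype and 0.05 in knockout, and the median interaction was 0.59 against 0.03 for all genes tested. edgeR's quasi-likelihood test called 0 members, 5 were positive and 0 negative at an unadjusted p under 0.05, DESeq2 called 1 and limma 0. Of all 8908 genes tested, 675 were positive and 594 negative at that unadjusted level. At 8 cells 6 of the 20 were called higher in knockout, against 4.25% of all genes, and 0 were called at 4 cells. Mdm2, the ubiquitin ligase of p53, was at 48.8 CPM (6.95 to 96.7) in 8-cell wildtype and 96.6 CPM (41.8 to 338) in 8-cell knockout embryos, a difference of 1.37 (SE 0.26, adjusted p = 0.000679 by edgeR's quasi-likelihood test, Benjamini-Hochberg). Its ranges overlapped, and its interaction was 0.81 (SE 0.36, adjusted p = 0.275 by edgeR's quasi-likelihood test, Benjamini-Hochberg). Plk2, a stress-induced polo-like kinase, had an 8-cell difference of 2.07 (SE 0.46) and an interaction of 1.78 (SE 0.63, adjusted p = 0.134 by edgeR's quasi-likelihood test, Benjamini-Hochberg). Sesn2, a stress-induced inhibitor of mTORC1, had an 8-cell difference of 1.22 (SE 0.35) and an interaction of 1.62 (SE 0.48, adjusted p = 0.0613 by edgeR's quasi-likelihood test, Benjamini-Hochberg). Cdkn1a, the cyclin-dependent kinase inhibitor p21, rose by 1.12 (SE 0.30) in knockout, with an interaction of 0.66 (SE 0.42, adjusted p = 0.518 by edgeR's quasi-likelihood test, Benjamini-Hochberg). Not all members had this pattern: Aen had an interaction of -0.21 (SE 0.29) and an 8-cell difference of -0.21 (SE 0.21), neither called. For Bax they were 0.31 (SE 0.42) and 0.29 (SE 0.30), neither called.

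**Figure D5:**
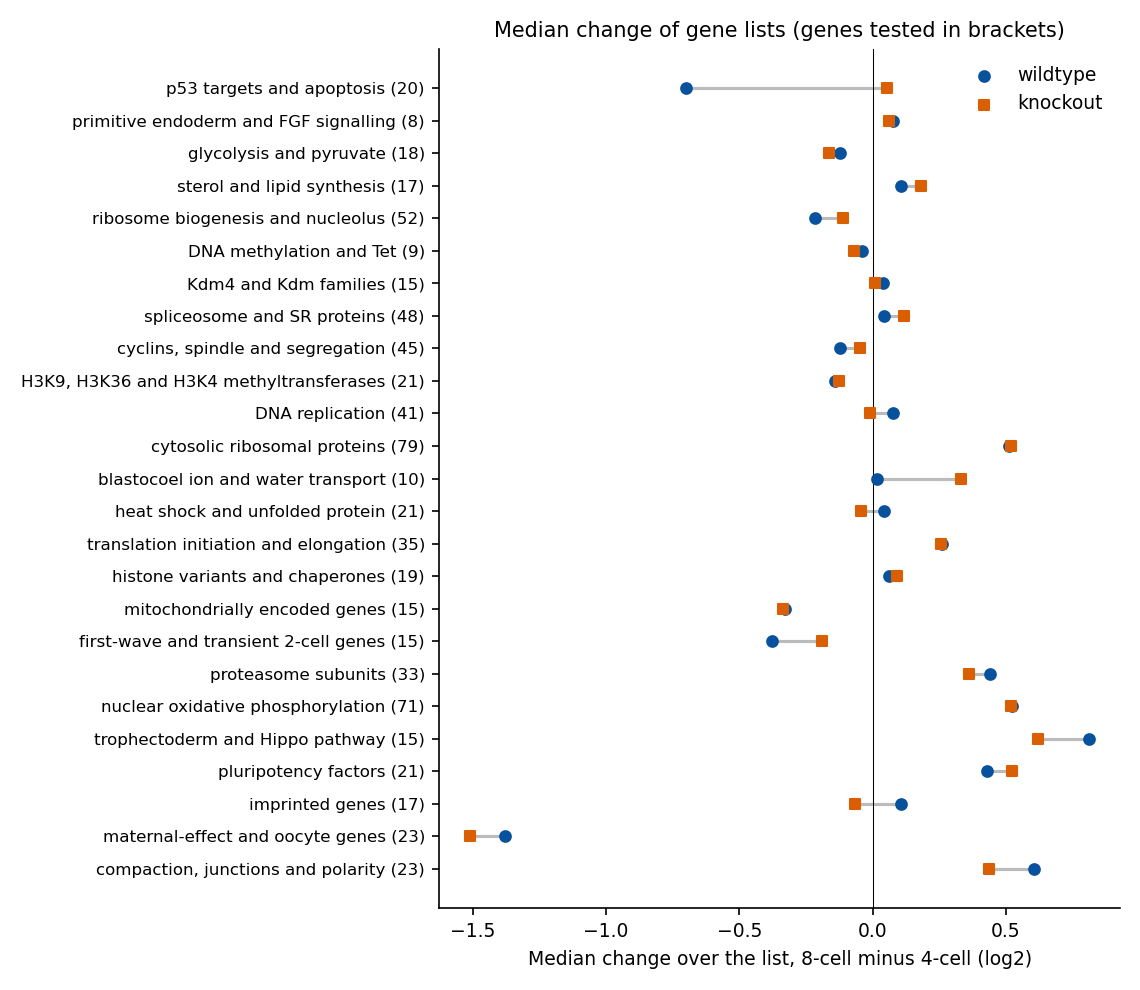
Median change from 4-cell to 8-cell (log2, horizontal axis) of the tested genes of each list, in wildtype and in knockout embryos; medians are over genes and carry no error bar. The p53 and apoptosis list goes from -0.70 in wildtype to 0.05 in knockout, while ribosomal protein genes lie at 0.51 and 0.52.

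Heat shock and unfolded protein genes (21 tested) held 2 positive calls, against 0.954% of all genes, with a median interaction close to 0. Dnajb1, the HSP40 partner of HSP70, had wildtype medians of 63.6 CPM (46 to 206) and then 50.9 CPM (20.6 to 69.4), and knockout medians of 42.3 CPM (14.7 to 87.3) and then 57 CPM (38.5 to 115), an interaction of 1.20 (SE 0.28, adjusted p = 0.0142 by edgeR's quasi-likelihood test, Benjamini-Hochberg). Hsph1, a nucleotide exchange factor of HSP70, had wildtype medians of 217 CPM (80.8 to 392) and then 70.5 CPM (40.1 to 106), and knockout medians of 115 CPM (68.9 to 239) and then 73.6 CPM (35.2 to 156), an interaction of 0.99 (SE 0.27, adjusted p = 0.0374 by edgeR's quasi-likelihood test, Benjamini-Hochberg) that was lost in 6 of 62 fits that left out 1 library. The abundant chaperones Hspa8 and Hsp90aa1 had interactions of 0.09 (SE 0.28) and 0.04 (SE 0.15), neither called.

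The promoter windows of these called chaperone genes are shown with capitals on the heat shock element searched, the triplets GAA, TTC and GAA with 2 free bases between neighbours, on both strands (RefSeq, GRCm38.p6). The element occurred once in the window of Hsph1 (chr5:149636287-149636586, minus strand) and not in that of Dnajb1 (chr8:83607925-83608224, plus strand). In Hsph1 the match lies at the downstream end of the window, past the gene start at 149636338 (mm10), so inside the annotated gene. Whether it acts there was not tested. The element occurred in 0.529% of all 27025 windows and in 2 of 21 list members with a window, Hspe1 and Hsph1.
Hsph1: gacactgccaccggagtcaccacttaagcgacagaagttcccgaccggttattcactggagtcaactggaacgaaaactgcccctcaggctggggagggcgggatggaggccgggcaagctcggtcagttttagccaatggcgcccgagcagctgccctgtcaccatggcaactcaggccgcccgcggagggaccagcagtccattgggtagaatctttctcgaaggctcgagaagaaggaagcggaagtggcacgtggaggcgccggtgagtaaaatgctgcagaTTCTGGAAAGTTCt
Dnajb1: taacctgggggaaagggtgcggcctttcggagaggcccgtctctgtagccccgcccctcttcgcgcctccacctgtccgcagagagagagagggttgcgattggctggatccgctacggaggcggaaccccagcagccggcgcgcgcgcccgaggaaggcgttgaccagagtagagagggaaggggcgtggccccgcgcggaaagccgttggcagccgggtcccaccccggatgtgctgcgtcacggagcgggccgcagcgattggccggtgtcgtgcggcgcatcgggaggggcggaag

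Of genes that act on chromosomes, Pttg1, the securin that holds back chromatid separation, was the 1 call by edgeR among 45 cyclin, spindle and segregation genes, of which DESeq2 and limma each called 2, all positive. It was at 438 CPM (113 to 617) in 4-cell wildtype and 490.0 CPM (393 to 671) in 4-cell knockout embryos, and at 239.6 CPM (62.5 to 459) and 551 CPM (340.3 to 973) at 8 cells. Its difference was called at 8 cells (1.22 (SE 0.18)) and not at 4 cells (0.30 (SE 0.17)), with an interaction of 0.92 (SE 0.24, adjusted p = 0.036 by edgeR's quasi-likelihood test, Benjamini-Hochberg). H2afx, the histone variant phosphorylated at DNA breaks, was at medians of 8.96 and 1.09 CPM at 4 cells and 6.79 and 4.7 CPM at 8 cells in wildtype and knockout, with an interaction of 2.26 (SE 0.57). Its 4-cell knockout median lies at the limit of detection, so this size depends on how low values are treated. Anp32e, a chaperone that removes H2A.Z, had -0.82 (SE 0.23), lost in 39 of 62 fits; these were the calls by edgeR among 19 histone variant and chaperone genes, of which DESeq2 called 2 positive and 1 negative and limma 1 each way. Gins1, of the replicative helicase, had -0.87 (SE 0.24), lost in 34 of 62 fits, as the 1 call by edgeR among 41 replication genes. Sf3a1, of the U2 small nuclear ribonucleoprotein, had 1.16 (SE 0.29), as the 1 call by edgeR among 48 spliceosome genes. Over all genes tested, 0.954% were called positive and 0.909% negative, so 1 call in a list of this size says little about the list.

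The other lists held 0 calls by edgeR's quasi-likelihood test, and DESeq2 and limma each called at most 1 member of any of them in either direction. For some of these lists the counts at an unadjusted p under 0.05 are given, in part beside their median stage changes. Cytosolic ribosomal proteins (79 tested) had median changes of 0.51 in wildtype and 0.52 in knockout, with 0 positive and 0 negative at that level, and with 15 members lower in knockout at 4 cells and 8 at 8 cells, against 8.43% and 3.15% of all genes. Nuclear oxidative phosphorylation genes (71 tested) had median changes of 0.52 in both genotypes, with 0 and 3. Maternal-effect and oocyte genes (23 tested), whose mRNAs are inherited from the egg, had median changes of -1.38 and -1.51, with 0 and 0 and with 9 members higher in knockout at 4 cells and 4 at 8 cells, against 9.68% and 4.25% of all genes. Ribosome biogenesis genes (52 tested) had 7 positive and 3 negative, with 11 members lower in knockout at 4 cells and 3 at 8 cells, against 8.43% and 3.15% of all genes. Pluripotency factors (21 tested) had 1 positive and 2 negative, and trophectoderm and Hippo genes (15 tested) 3 and 2. The Kdm families (15 tested) had 1 positive and 2 negative, and Kdm5b, their most abundant tested member, had an interaction of 0.28 (SE 0.19). Over all genes tested, 675 were positive and 594 negative at that level.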

How the data were processed

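The deposited table held estimated counts per gene for single embryos, which per the submitters' processing notes came from Trimmomatic 0.32, STAR 2.5.1a and featureCounts 1.5.1 on mm10; whether counting used strand is not given in these sources. Whole numbers were absent from 30.56% of its non-zero values, as happens when reads are shared between genes, and all were rounded to whole counts here. The 4 groups were fitted together over 62 libraries with edgeR 4.0.16 (R 4.3.3; TMM scaling, genes kept by filterByExpr, robust quasi-likelihood test), which left 8908 of 41300 genes. Calls needed a Benjamini-Hochberg adjusted p under 0.05, and stage changes also a log2 change of at least 1. limma 3.58.1 and DESeq2 1.42.0 were alternatives. CPM used library totals. Other steps used Python 3.11.15. Recovery of known changes was tested on simulated data.

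Genes named were the 5 smallest p in each class of wildtype direction and sign with a group mean of at least 20 CPM and no provisional name, and per list up to 3 called members or else the most abundant; genes named outside this rule are marked in the text or serve as list examples. The members and lists were chosen with earlier results of these data known. Counts of 1455238 to 3919768 per library set the precision, and 3 counts correspond to 0.765 to 2.06 CPM; this limit covers counting error only. Positions are those of the deposited table (mm10), with names from GENCODE M21 by position.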

Additional observations from a re-analysis of the deposited data

Results flagged for a closer look

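The interaction itself is the test of whether the step from 4 to 8 cells differed between the genotypes, and it passed for 85 genes with a positive and 81 with a negative value by edgeR's quasi-likelihood test, Benjamini-Hochberg. Among the named genes with a negative interaction, the log2 differences were -1.62 for Ube2e3, -2.11 for Snrpn, -1.30 for Cul1, -1.94 for Snhg14, -1.83 for Hsd17b6, -1.48 for Zranb1, -1.73 for Khdc1b, -0.78 for Atp13a3, -1.62 for Decr2, -1.05 for Fbxo11, -3.13 for Cldn6, -1.13 for Epcam, -0.87 for Gins1 and -0.82 for Anp32e. Among the named genes with a positive interaction, they were 1.07 for Twistnb, 0.88 for Haus3, 2.31 for Eid2, 1.14 for Nfyb, 1.46 for Mga, 2.45 for Nupr1, 1.01 for Cir1, 0.68 for Sap30bp, 1.20 for Dnajb1, 0.95 for Tigar, 1.16 for Sf3a1, 0.92 for Pttg1, 2.26 for H2afx and 0.99 for Hsph1. The causes were not tested.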

How the results depend on the processing

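The 166 calls kept their sign with other size factors, library totals alone, no filter, DESeq2, limma and replicates 9 to 16 alone, and 162 of 164 kept it in replicates 1 to 8. These genes were picked from the same libraries, so their signs were largely fixed in advance. Of the 166, 162 stayed called with DESeq2, 112 with limma, 6 in replicates 9 to 16 and 5 in replicates 1 to 8. The number of calls depended on the settings; the cause was not tested. Without a filter (28577 genes tested) there were 348 positive and 267 negative calls (154 negative among rising and 248 positive among falling genes), stage changes of 1862 rising and 2829 falling in wildtype and 1374 and 1574 in knockout, and 1640 higher and 1324 lower at 4 cells and 758 higher at 8 cells. DESeq2 gave 147 positive and 134 negative calls, with 66 negative among rising and 91 positive among falling genes, and 570 higher at 8 cells. limma gave 125 negative calls, and 628 higher and 610 lower at 8 cells. With 8-cell knockout replicate 7 there were 188 positive and 53 negative calls, 106 positive among falling genes, 342 falling in knockout, 507 higher and 442 lower at 4 cells and 991 higher at 8 cells; Cul1 had 0.044 and Khdc1b 1.64, both against their main sign and not called, and of 165 genes of the 166 that were tested there, 161 kept their sign and 101 stayed called. Replicates 1 to 8 alone gave 3 positive and 2 negative calls (2 negative among rising, 1 positive among falling), 217 higher and 207 lower at 4 cells and 1 higher and 0 lower at 8 cells. Replicates 9 to 16 alone gave 1 positive and 6 negative calls (5 negative among rising, 1 positive among falling), 710 falling in wildtype, 317 rising and 247 falling in knockout, 376 higher and 273 lower at 4 cells and 66 higher and 34 lower at 8 cells. With all 8 groups in the fit there were 355 positive and 285 negative calls (142 negative among rising, 261 positive and 2 negative among falling), 2123 falling in wildtype, 1403 falling in knockout, 1669 higher at 4 cells and 974 higher at 8 cells. Without a minimum fold there were 1886 rising and 2055 falling in wildtype and 1322 and 1220 in knockout, with 73 negative calls among rising and 1 among falling genes. Directions from odd- and even-numbered wildtype libraries gave 15 and 6 negative calls among rising and 4 and 1 positive calls among falling genes. The 1 positive call among rising genes became 0 with limma, a minimum of 10 CPM, the replicate block, either set of replicates and either split direction.

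Leaving out 1 library at a time gave 44 to 100 positive and 56 to 97 negative calls, 0 to 1 positive and 27 to 53 negative among rising genes, and 25 to 64 positive and 0 to 0 negative among falling genes. Stage changes ran from 774 to 898 rising and 1041 to 1196 falling in wildtype and 487 to 629 and 530 to 766 in knockout. Differences ran from 780 to 923 higher and 685 to 794 lower at 4 cells and 314 to 415 and 240 to 310 at 8 cells.

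The replicate numbers did not pair the embryos: same-numbered embryos of 2 groups had mean correlations of -0.03 to 0.03, and at most 1 pair of a comparison correlated best with its own number. With the number as a replicate block there were 34 positive calls, 17 of them among falling genes, and 92 calls in all, 87 of them among the 166.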

Other observations

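In the separate fits of replicates 1 to 8 and 9 to 16, no gene was called in both. Those called in replicates 1 to 8 were Calm5, Akr1b8, RP24-177J9.4, Snrpn and Nupr1. Those called in replicates 9 to 16 included Ube2e3, Ube2r2 and Cul1. Neighbouring calls of 1 sign also occurred on chromosome 11, where RP23-29H5.3, Timd2 and Havcr1, cell surface receptor genes of the TIM family in the case of the named ones, were negative among 6 genes tested between 46051354 and 46779578 (mm10). On chromosome 10, RP24-406I15.2, Nfyb and RP24-227O16.1 were positive among 7 genes tested between 82128013 and 83488505. These runs were picked after their values were seen and carry no test.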
